A study of Mus musculus with 6 samples.

Results

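The mouse T cell receptor (TCR) loci were examined through the 65 array probes, of 41174 in all, whose annotated mm9 position lay in 3 windows: chr14:52900000-54850000, which holds the alpha and delta chain segments (32 probes), chr6:40800000-41600000, which holds the beta chain segments (24 probes), and chr13:19200000-19500000, which holds the gamma chain segments (9 probes). Control features, olfactory receptor genes (Olfr), trypsin family genes (Prss and Try) and the genes Dad1, Abhd4, Oxa1l and Ephb6 were left out. By their names and descriptions on the array, 50 of the 65 probes read receptor segments, receptor chains or unnamed sequence among them, and the other 15 read neighbouring genes of other kinds that the windows include, such as Tox4 and Mettl3. The 2 kinds are kept apart throughout.

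The TCR on T cells is a pair of an alpha and a beta chain or of a gamma and a delta chain. Each chain is built from variable (V), joining (J) and, in beta and delta, diversity (D) segments, which the RAG recombinase joins in developing T cells, followed by a constant (C) region. The delta segments lie inside the alpha locus. Segments and constant regions are known to be transcribed before they are joined, so a signal on an array does not show that a locus was rearranged, and the CD3 chains carry the assembled receptor to the cell surface.

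The compared cells were Ebf1-deficient (Ebf -/-) mouse pre-pro-B cells, the progenitor stage at which B cell development stops without the transcription factor Ebf1. Both groups were kept with Flt3 ligand, interleukin 7 and stem cell factor (10 ng/ml each) over OP9 stromal feeders, and EGFP-positive cells were sorted 24 h after infection with either of 2 retroviruses. One virus carried Ebf1 and EGFP (pMYs-Ebf1-IRES-EGFP in the protocol, with the insert named Ebf1beta in the titles; n = 3), and the control virus carried EGFP alone (pMYs-IRES-EGFP; n = 3). All groups thus lacked endogenous Ebf1, and expression of the returned gene was driven by the retrovirus. The labels do not say whether replicates were separate animals or cultures, so the p-values below measure only the spread between these samples.

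Of the 20454 probes tested over the whole array, 2350 (11.5%) were higher and 2085 (10.2%) were lower with Ebf1 virus at a limma adjusted p under 0.05. The median log2 change of all tested probes was −0.06. Under median scaling in place of scaling to the 75th percentile it was −0.37, and the calls split into 1256 higher and 2642 lower, so the values below are read against these medians. The 75th percentile of processed signal was 316 to 364 on Ebf1 virus arrays and 240 to 366 on control virus arrays, and 50.5% to 60.1% and 46.6% to 50.5% of non-control features were well above background. All 9 pre-pro-B markers examined were measured. The tested Ebf1 probe read 0.22, 0.40 and 0.27 with Ebf1 virus, against 0.86, 0.10 and 0.36 with control virus; whether it lies in the viral insert or the deleted part is not given in the sources used here, so it does not check the labels.

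The probes are 60 bases long, and the sequence of each sets which transcript it reads. Shown first are 2 V segment probes of different loci in which a search for TANNNNTGNGC found a match (capitals); the pattern covers the conserved tyrosine and cysteine codons near the 3′ end of V segments. The search covered both strands, with no other motif. The pattern occurred as printed in 3 of the 50 receptor probes (6%), against 405 of all 41174 probes (0.984%), and on either strand in 4 (8%) against 707 (1.72%).
TRAV14D-3/DV8, alpha/delta locus: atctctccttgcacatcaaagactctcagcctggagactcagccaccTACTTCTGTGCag
TRBV5, beta locus: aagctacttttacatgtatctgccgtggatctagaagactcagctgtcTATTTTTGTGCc
The next probes read constant parts of the beta chains. They are the only pair of the 50 receptor probes with a common run of 15 or more bases, and the 16 shared bases are in capitals.
TRBC1: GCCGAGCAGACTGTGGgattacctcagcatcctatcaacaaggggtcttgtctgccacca
U07661, probe A_51_P478172: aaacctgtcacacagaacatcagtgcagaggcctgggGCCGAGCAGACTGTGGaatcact
Probes whose annotated position spans more than their own length read a joined transcript across an intron or a rearrangement. The 4 shown carried the calls described below in the alpha/delta and gamma loci, in lower case throughout.
Tcra, probe A_52_P112591: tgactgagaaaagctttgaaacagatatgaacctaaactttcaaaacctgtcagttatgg
A630038E17Rik, probe A_52_P80787: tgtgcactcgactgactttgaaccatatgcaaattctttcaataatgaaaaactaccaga
K02899, gamma chain: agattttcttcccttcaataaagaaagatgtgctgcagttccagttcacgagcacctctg
X03802, gamma chain: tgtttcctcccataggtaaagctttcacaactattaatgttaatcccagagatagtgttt

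In each of the 3 loci most tested receptor probes were lower in cells that received Ebf1. Of the 50 receptor probes, 22 cleared the software's background criterion on every array of either group and were tested. Of these, 18 were above background on all 6 arrays. Tcrb-J A_52_P1078023, 621968 and U07661 A_51_P478172 qualified through the control virus arrays alone, which favours a lower value for them. NAP069146-1 qualified through the Ebf1 virus arrays alone. By limma 16 of the 22 were lower with Ebf1 virus and 0 were higher, beside 10.2% and 11.5% of all tested probes. At an unadjusted p under 0.05 the count of higher probes was also 0. The 22 include 3 unclassified probes, 1 of them lower, whose names do not mark them as receptor transcripts. On all 16 called probes the groups did not overlap, and over the 22 tested this held for 17, beside 23.7% of all tested probes. The median log2 change of the 22 was −1.37, against −0.06 for all tested probes. The remaining 28 receptor probes were not tested, 20 of them because no array had signal above background. In bulk RNA, fewer cells with a transcript and less of that transcript per cell cannot be told apart.

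Lower probes were found in every locus. In the alpha/delta locus 8 of 28 receptor probes were tested and 6 were lower, with a median log2 change of −1.39. In the beta locus 8 of 16 were tested and 5 were lower (median −1.50), and in the gamma locus all 6 were tested and 5 were lower (median −1.14). Of the 8 tested beta probes 4 were above background on all 6 arrays. Tcrb-J A_52_P1078023, among the 5 lower, and the uncalled 621968 and U07661 A_51_P478172 qualified through the control virus arrays alone. That favours lower values, so the beta count and median carry this limit. Of the 15 neighbouring genes' probes, 6 were tested and 1 was lower (16.7%), with a median of −0.21. Over all tested probes of the array 10.2% were lower. No test of a difference between loci was made.

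**Figure D1:**
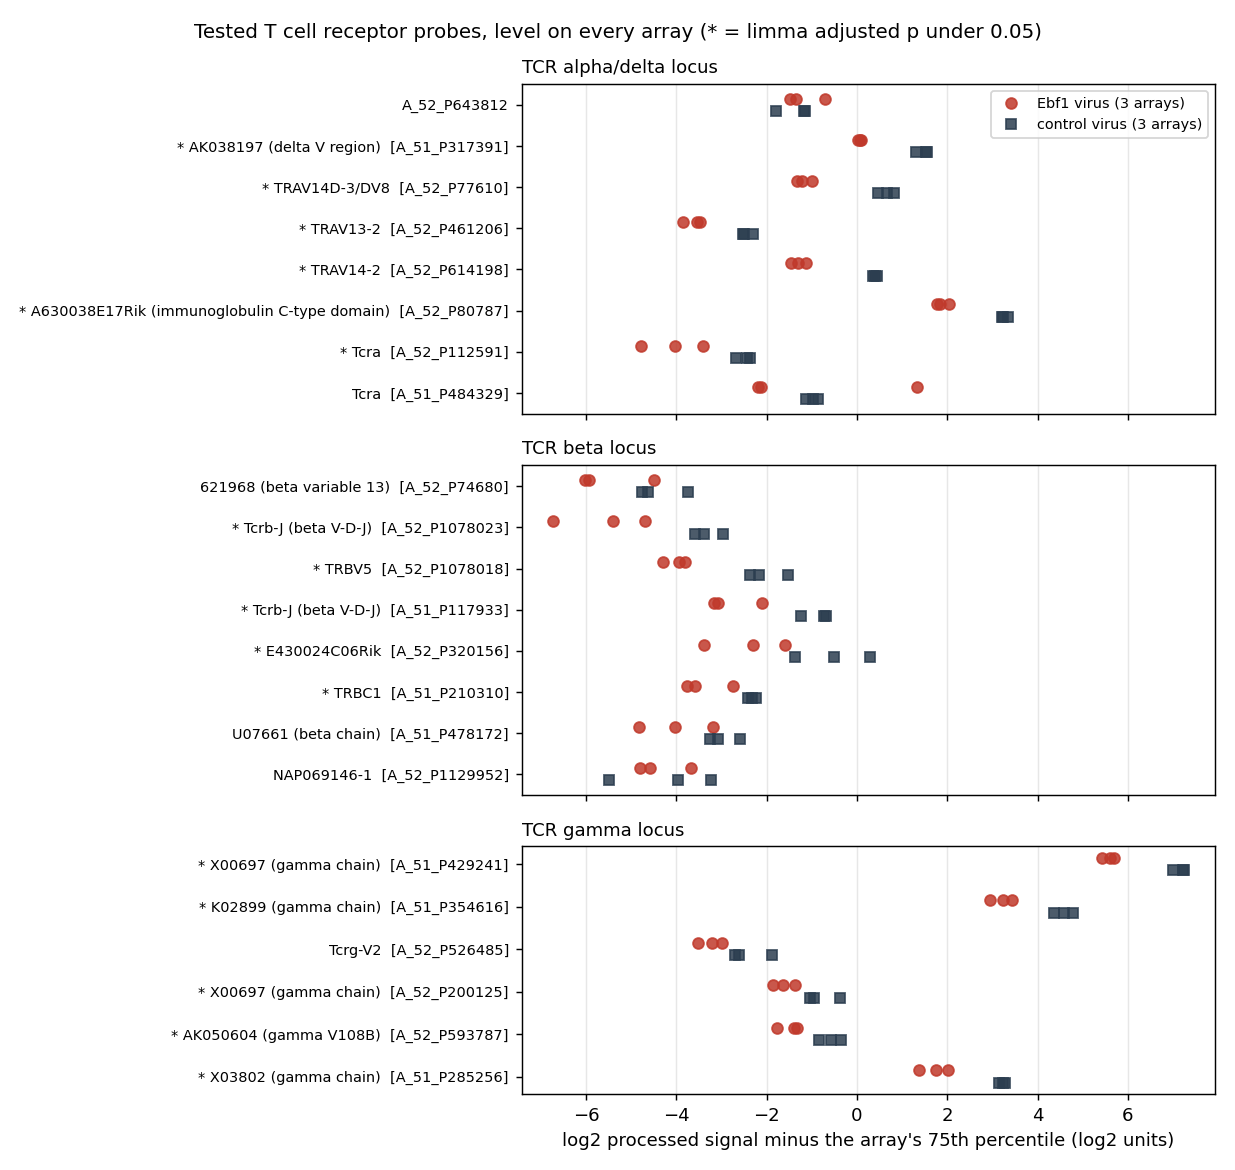
Levels of the 22 tested receptor probes on each of the 6 arrays, as log2 processed signal minus the array's 75th percentile (x axis), with Ebf1 virus arrays as circles above control virus arrays as squares and called probes starred. Each called probe has its 3 Ebf1 virus points left of its 3 control virus points, and positions of different probes on the x axis are not comparable amounts of RNA.

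**Figure D2:**
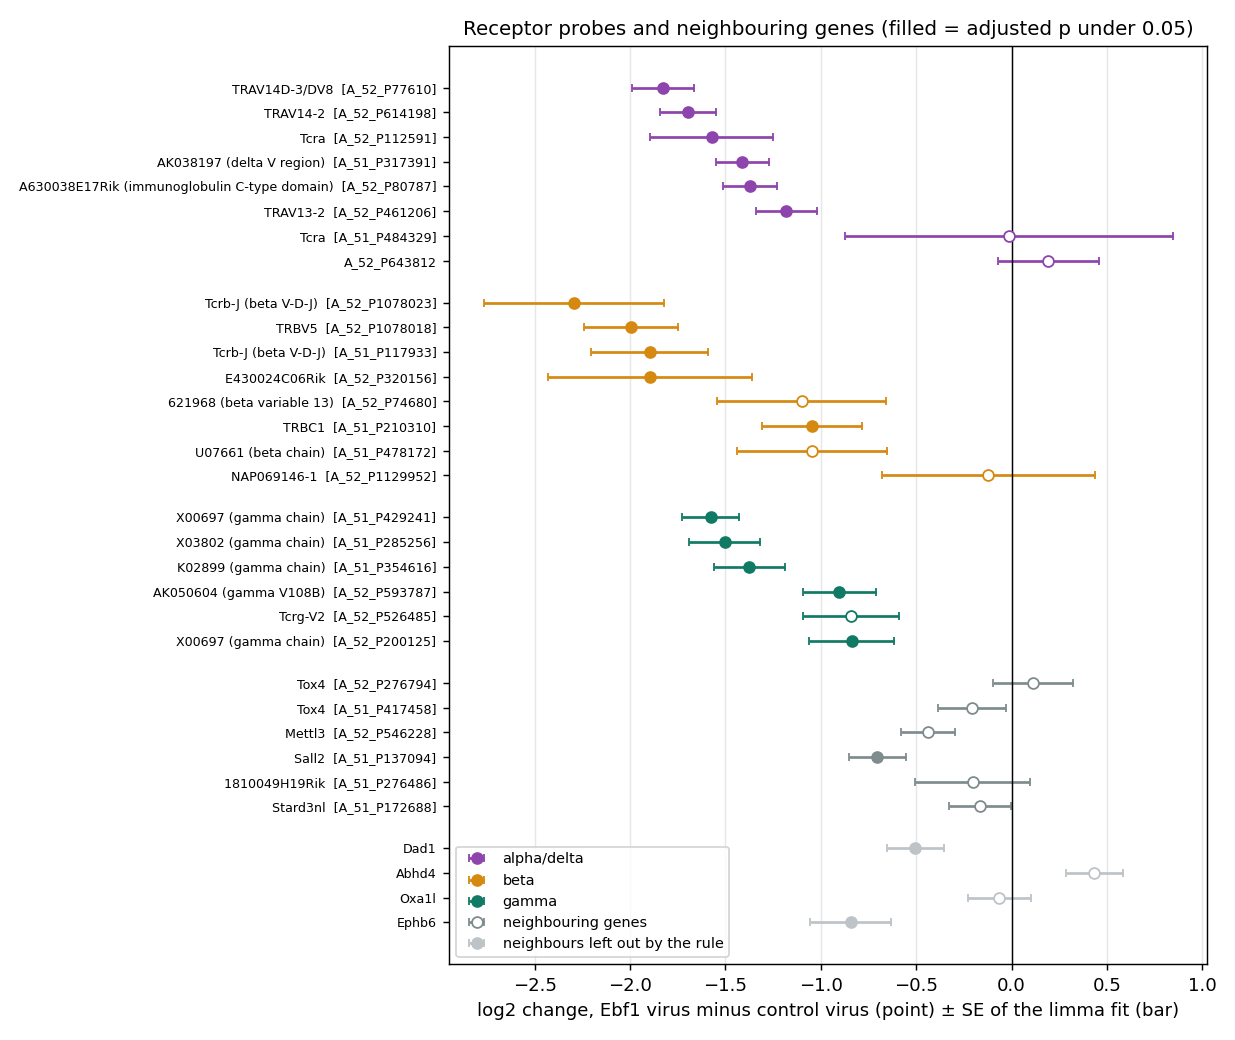
Log2 change, Ebf1 virus minus control virus, with the SE of the limma fit (bars) for tested receptor probes by locus, for tested neighbouring genes in the windows and for the 4 neighbours left out by name; filled points had an adjusted p under 0.05. Called receptor probes lie between −2.30 and −0.84, tested neighbouring genes within the windows between −0.70 and 0.11, and the 4 left out by name between −0.84 (Ephb6) and 0.43 (Abhd4). The probe at −2.30, Tcrb-J A_52_P1078023, was above background on 1 of 3 Ebf1 virus arrays.

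The gamma locus had the gamma chain probe X00697 (A_51_P429241, chr13:19396875-19396934, minus strand), with log2 levels of 5.43, 5.60 and 5.69 with Ebf1 virus, against 7.00, 7.21 and 7.24 with control virus. The groups did not overlap, and the level was 2.98-fold lower (log2 change −1.58 ± 0.15 SE, limma adjusted p = 0.000267). The junction probe K02899, printed above, gave 2.94, 3.23 and 3.43 with Ebf1 virus, against 4.36, 4.79 and 4.58 with control virus. Every Ebf1 virus array was below every control virus array, at a change of −1.37 ± 0.19 (limma adjusted p = 0.00179). X03802, whose probe spans 4708 bases of the plus strand and so reads a joined transcript, had 1.37, 2.01 and 1.76 with Ebf1 virus, against 3.15, 3.23 and 3.27 with control virus. This was a 2.83-fold lower level, again without overlap (−1.50 ± 0.19, limma adjusted p = 0.00118). These 3 probes kept their calls under all 17 alternative settings. Among those settings, the deposited table held the same intensities and so repeated the fit. The slide as a fixed block takes its change from slide 2, the only slide with both groups. X00697 A_51_P429241 and K02899 (chr13:19397039-19399117) lie close together on the minus strand, so they may not be independent measurements.

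Probes of the V-side part of the gamma locus were lower too. AK050604, described as gamma V108B, had −1.76, −1.39 and −1.32 with Ebf1 virus, against −0.35, −0.85 and −0.57 with control virus, a change of −0.90 ± 0.19 (limma adjusted p = 0.0145). The second X00697 probe (A_52_P200125, chr13:19428614-19428673) lay upstream of the first on the minus strand and gave −1.87, −1.64 and −1.37 with Ebf1 virus, against −0.94, −1.05 and −0.37 with control virus. Its groups did not overlap, and the change was −0.84 ± 0.22 (limma adjusted p = 0.0344), with both X00697 probes lower. These probes list 2 records in common on the array, so they may not be independent measurements. The V segment Tcrg-V2 read −3.52, −3.22 and −2.99 with Ebf1 virus, against −1.88, −2.61 and −2.70 with control virus, and its change of −0.84 ± 0.25 did not pass (limma adjusted p = 0.0505). The call on AK050604 was lost without control virus replicate 3 (adjusted p = 0.052), and that on A_52_P200125 without any 1 of 5 arrays, both Ebf1 virus replicates 1 and 2 and all control virus replicates (adjusted p 0.0516 to 0.0958, changes −0.97 to −0.63); neither was called with the slide as a fixed block (adjusted p = 0.0816 and 0.191) or without the filter on dim probes (adjusted p = 0.0859 and 0.154), and without control virus replicate 3 the locus had 3 lower probes in place of 5. The call on A_52_P200125 was also lost with normexp correction, in all under 8 of 17 settings. Stard3nl, the one tested neighbouring gene beside these segments, had a log2 change of −0.17 (limma adjusted p = 0.497) with overlapping groups.

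In the alpha/delta locus the called V segment probes lay within chr14:53577195-54260772, and the other calls lay at the constant-side end. In this locus 20 of the 28 receptor probes were not tested. TRAV14D-3/DV8, a V segment that can join to either alpha or delta sequence by its name, read −1.0, −1.22 and −1.33 with Ebf1 virus, against 0.67, 0.81 and 0.45 with control virus. The groups stood apart by more than their spread, and the level was 3.55-fold lower (−1.83 ± 0.16, limma adjusted p = 0.000202). TRAV14-2, a related V segment (chr14:54260713-54260772), read −1.12, −1.31 and −1.46 with Ebf1 virus, against 0.35, 0.45 and 0.39 with control virus. It was 3.24-fold lower without overlap (−1.70 ± 0.15, limma adjusted p = 0.000172), but both probes list 1 Ensembl transcript in common on the array, so they may not be independent measurements.

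AK038197, described as a delta V region (chr14:53577195-53577254), had levels of 0.08, 0.01 and 0.06 with Ebf1 virus, against 1.31, 1.55 and 1.53 with control virus. The Ebf1 virus arrays lay close together and below all control virus arrays, with a change of −1.41 ± 0.14 (limma adjusted p = 0.000332). TRAV13-2 read −3.54, −3.85 and −3.49 with Ebf1 virus, against −2.53, −2.50 and −2.31 with control virus. It was 2.27-fold lower (−1.18 ± 0.16, limma adjusted p = 0.00174), and the call was lost with normexp background correction, where the change was −0.40 (adjusted p = 0.094), and with the slide as a fixed block (−1.04, adjusted p = 0.0787).

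The constant-side probes of the alpha/delta locus were A630038E17Rik and Tcra. A630038E17Rik, described on the array as carrying an immunoglobulin C-type domain, lies at chr14:54762764-54763464 between the V segments and Tcra, and read 1.83, 1.78 and 2.05 with Ebf1 virus, against 3.24, 3.21 and 3.33 with control virus. It was 2.59-fold lower, with no overlap (−1.37 ± 0.14, limma adjusted p = 0.000431). A second probe of the same name (A_51_P214047) was not above background on any array. The junction probe of Tcra, the alpha chain gene, read −3.41, −4.79 and −4.02 with Ebf1 virus, against −2.38, −2.68 and −2.44 with control virus. Its groups did not overlap, at a change of −1.57 ± 0.32 (limma adjusted p = 0.013), which was −0.54 with normexp correction (adjusted p = 0.0174) and was not called with the slide as a fixed block (−0.73, adjusted p = 0.277) or without the filter on dim probes (adjusted p = 0.073).

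The other tested Tcra probe (A_51_P484329, chr14:54843713-54843772), described because of its values after they were seen, did not pass. It read −2.13, 1.33 and −2.20 with Ebf1 virus, against −0.96, −0.87 and −1.13 with control virus, so that 1 Ebf1 virus array lay above and 2 lay below all control virus arrays (change −0.01 ± 0.86, limma adjusted p = 0.992). On Ebf1 virus replicate 2 the mean spot signal was 947 and the median of its local background was 1360, against mean signals of 121 and 104 over local backgrounds of 18 and 20 on the other Ebf1 virus arrays. The scanner software marked that local background as a population outlier but did not mark the spot, so the spot stayed in the fit. Without Ebf1 virus replicate 2 the change was −1.18 (limma adjusted p = 0.00644), and with normexp correction, which uses the local background, it was −1.35 (adjusted p = 0.00906).

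**Figure D3:**
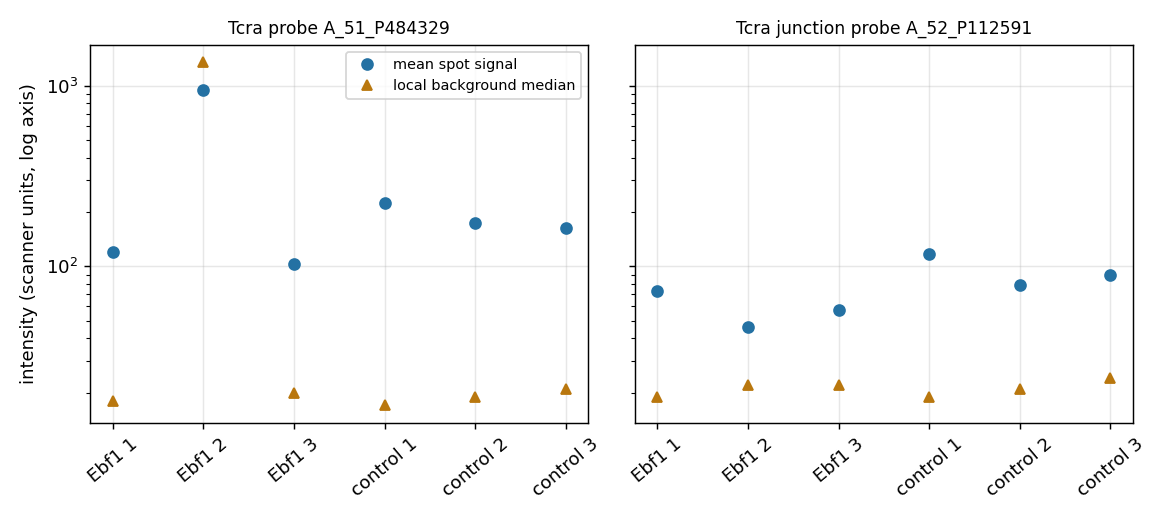
Mean spot signal (circles) and median local background (triangles) of the 2 tested Tcra probes on each array, in scanner units on a log axis, with Ebf1 virus arrays left of control virus arrays. On Ebf1 virus replicate 2 the local background of A_51_P484329 is at 1360, above the spot's own mean signal of 947, while the other 11 local backgrounds lie between 17 and 24.

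The alpha/delta window also held the one tested receptor-window sequence with a positive change, A_52_P643812, which carries no gene name and was described after its values were seen. It gave a change of 0.19 (limma adjusted p = 0.636) with overlapping groups, and its sign turned under median scaling. Of the 4 neighbouring-gene probes, all at the far end from Tcra, Sall2, a zinc finger gene, was lower (−0.70 ± 0.15, limma adjusted p = 0.0142). That call was lost with normexp correction (−0.21, adjusted p = 0.46), with the slide as a fixed block (0.178), without the filter on dim probes (0.0897), with eBayes trend and robust options (0.057) and without control virus replicate 3 (0.0591). Mettl3, which encodes a subunit of the RNA m6A methyltransferase, had a log2 change of −0.44 (adjusted p = 0.0648) and did not pass. The 2 probes of Tox4 disagreed in sign, at 0.11 and −0.21, and neither passed (adjusted p = 0.734 and 0.435).

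The beta locus had signal nearer background, with 4 of its 8 tested receptor probes above background on all 6 arrays. TRBV5, printed above, read −4.30, −3.81 and −3.95 with Ebf1 virus, against −1.53, −2.36 and −2.18 with control virus. It was 3.99-fold lower with no overlap (−2.0 ± 0.25, limma adjusted p = 0.00112). Both probes that the array names Tcrb-J flank TRBV5 on the same strand and lie with it in chr6:41012652-41012889. A_52_P1078023 shares 3 listed records with TRBV5 and 1 with A_51_P117933, while the last pair shares none, and whether the 3 probes read 1 transcript was not tested, so they may not be independent measurements. The Tcrb-J probe A_51_P117933 read −3.17, −3.08 and −2.09 with Ebf1 virus, against −0.73, −1.23 and −0.68 with control virus. Its arrays did not overlap, at −1.90 ± 0.31 (limma adjusted p = 0.00434). The Tcrb-J probe A_52_P1078023 was above background on 1 of 3 Ebf1 virus arrays, at −6.73, −5.41 and −4.68 with Ebf1 virus, against −2.97, −3.58 and −3.39 with control virus. Its change of −2.30 ± 0.47 (limma adjusted p = 0.0127) is therefore measured on few spots above background, and it was not called with normexp correction (−0.44, adjusted p = 0.0926) or without the filter on dim probes (adjusted p = 0.072).

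TRBC1, the first of the 2 beta constant regions, read −3.59, −3.77 and −2.75 with Ebf1 virus, against −2.42, −2.32 and −2.24 with control virus. The groups did not overlap, and the change was −1.05 ± 0.26 (limma adjusted p = 0.0284). The U07661 probe that shares 16 bases with it read −4.04, −4.84 and −3.19 with Ebf1 virus (above background on 2 of these 3 arrays), against −3.08, −3.25 and −2.60 with control virus; its groups overlapped and its change of −1.04 did not pass (adjusted p = 0.099). E430024C06Rik, an unclassified transcript on the minus strand (chr6:41150019-41150078), read −3.39, −2.29 and −1.59 with Ebf1 virus, against 0.30, −1.38 and −0.52 with control virus. Its change was −1.89 ± 0.53 (limma adjusted p = 0.0414), the largest SE among the called probes, and its highest Ebf1 virus array lay just under its lowest control virus array.

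Calls at the beta locus depended on single arrays. Without Ebf1 virus replicate 1 or 2, or control virus replicate 1 or 3, 3 of the beta probes were called in place of 5. The TRBC1 call was lost without any 1 of those arrays or control virus replicate 2 (limma adjusted p 0.0655 to 0.0891), and the E430024C06Rik call without any 1 of those 4 arrays (adjusted p 0.0928 to 0.114). TRBV5 and Tcrb-J A_51_P117933 kept their calls under all 17 alternatives, but with normexp correction their changes were −0.82 and −1.06, and TRBC1 was at −0.38 (adjusted p = 0.148). The TRBC1 call was also lost with the slide as a fixed block (adjusted p = 0.144), without the filter on dim probes (0.133) and with spots of marked background left out (0.124), in all under 9 of 17 settings, and the E430024C06Rik call without that filter (0.166).

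Of the beta probes that did not pass, NAP069146-1 had a log2 change of −0.12 (limma adjusted p = 0.896), with overlapping groups. The V segment probe 621968 (beta variable 13), named after its values were seen, had one of −1.10 (adjusted p = 0.118). The neighbouring gene 1810049H19Rik had a log2 change of −0.20 (adjusted p = 0.659), and the other 7 neighbouring-gene probes of the window were not tested.

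**Figure D4:**
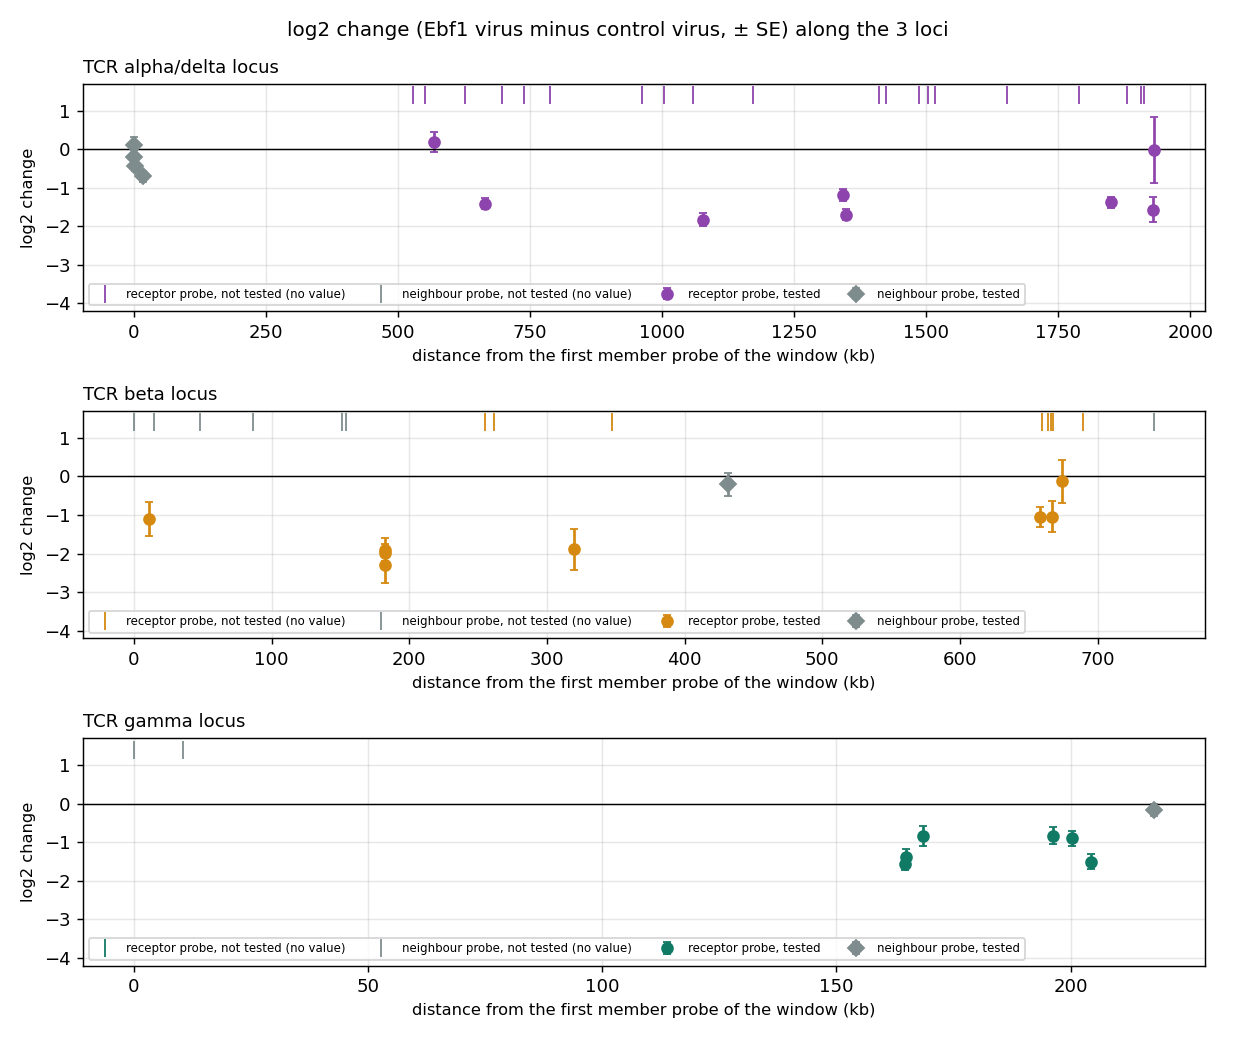
Log2 change, Ebf1 virus minus control virus, with its SE against distance (kb) from the first member probe of each window, for receptor probes (circles) and neighbouring genes (diamonds); ticks at the top are probes that were not tested and have no value. Most tested receptor probes lie below −0.8, but A_52_P643812 (0.19), NAP069146-1 (−0.12) and Tcra A_51_P484329 (−0.01) lie near 0. Of the neighbouring genes, Stard3nl (−0.17), 1810049H19Rik (−0.20) and Tox4 (0.11 and −0.21) lie near 0, while Mettl3 is at −0.44 and Sall2, which was called lower, at −0.70.

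Beyond their place, the receptor probes differed in strand, in the part of the chain they read and in whether they crossed a junction. Of 7 junction-crossing probes 6 were tested and 5 were lower (median log2 change −1.37), and of 43 probes within 1 stretch 16 were tested and 11 were lower (median −1.30). Of 20 probes described as V segments, 10 were tested and 8 were lower (median −1.55), and of 12 unclassified probes 3 were tested and 1 was lower (median −0.12). On the plus strand 12 of 15 tested probes were lower, and on the minus strand 4 of 7, beside 10.2% of all tested probes of the array. The median GC content was 42.5% for tested and 43.3% for untested receptor probes. These subsets share probes and were not tested against each other.

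Only slide 2 held both groups, with Ebf1 virus replicate 1 and control virus replicate 2. On it 20 of the 22 tested receptor probes were lower with Ebf1 virus, beside 55.7% of all tested probes; A_52_P643812 (1.09) and NAP069146-1 (0.29) were higher. The median within-slide log2 difference was −1.42 for receptor probes, against −1.37 in the fit over 6 arrays. For the 17 tested probes whose groups did not overlap, all 16 called probes among them, a lower value within the slide was fixed by that. Their signs on slide 2 are therefore no separate check. Differences ran from −0.73 for Tcra A_52_P112591 to −2.02 for E430024C06Rik over the 15 called probes above background on both arrays. Tcrb-J A_52_P1078023 was not above it on Ebf1 virus replicate 1, so its difference is no measured size. This within-slide value rests on 1 array of each group and has no replicate. With the slide as a fixed block the fitted change is this same difference, because slides 1 and 3 held 1 group each. Calls lost or made under that setting therefore rest on 1 array of each group for their change.

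Of the 4 genes next to the receptor segments that were left out by name, 2 were lower, beside 10.2% of all tested probes. Ephb6 lies inside the beta window, while Dad1, Abhd4 and Oxa1l lie beyond the end of the alpha/delta window. Dad1, which lies beyond the Tcra constant region and encodes a subunit of oligosaccharyltransferase, read 4.10, 4.25 and 4.19 with Ebf1 virus, against 4.60, 4.57 and 4.89 with control virus (−0.51 ± 0.15, limma adjusted p = 0.0485). Ephb6, a kinase-dead Eph receptor gene beside the beta segments, read −4.28, −3.68 and −3.56 with Ebf1 virus, against −2.97, −3.16 and −2.87 with control virus (−0.84 ± 0.21, limma adjusted p = 0.0286). Both were lower without overlap between groups, but neither call held throughout. That on Dad1 was lost without any 1 of the 6 arrays (adjusted p 0.0753 to 0.163), with the slide as a fixed block (0.314), with quantile normalisation (0.0931), with median scaling (0.0726) and without the filter on dim probes (0.204). That on Ephb6 was lost with normexp correction (−0.31, adjusted p = 0.256), without the filter (0.137) and without Ebf1 virus replicate 2 or any 1 control virus replicate (0.0568 to 0.0972). Abhd4 had a log2 change of 0.43 (adjusted p = 0.0743) and Oxa1l one of −0.07 (adjusted p = 0.804), and neither passed.

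Chains and kinases that work with the TCR changed in part. Of 18 such genes 14 were tested, and 5 were lower and 0 were higher by limma, beside 10.2% and 11.5% of all tested probes. Their median log2 change was −0.28, and 2 were higher at an unadjusted p under 0.05. The CD3 chains, which carry the receptor to the surface, did not move as one: Cd3d read −3.72, −3.26 and −3.01 with Ebf1 virus, against −0.78, −2.28 and −1.66 with control virus (−1.76 ± 0.37, limma adjusted p = 0.0144). Cd3g read −4.06, −3.98 and −3.27 with Ebf1 virus, against −2.43, −2.46 and −1.84 with control virus (−1.53 ± 0.27, adjusted p = 0.00591). Both CD3 genes were lower on every Ebf1 virus array, whereas Cd3e (log2 change 0.14, adjusted p = 0.679) and Cd247, the zeta chain (0.71, adjusted p = 0.053), did not pass; the sign of Cd3e turned under quantile normalisation, median scaling, normexp correction and without control virus replicate 3. With the slide as a fixed block neither Cd3d (−1.44, adjusted p = 0.0882) nor Cd3g (−1.60, adjusted p = 0.0684) was called, and Cd3d was not called without the filter on dim probes (adjusted p = 0.08).

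Signalling partners were lower for some members. Txk, a TEC family kinase, read 1.69, 2.23 and 2.36 with Ebf1 virus, against 3.90, 4.12 and 4.47 with control virus (−2.07 ± 0.23, limma adjusted p = 0.000639). Trat1, a TCR-associated adaptor, changed by −1.91 ± 0.18 (adjusted p = 0.000261) and the adaptor Lcp2 by −1.57 ± 0.25 (adjusted p = 0.00423), each with non-overlapping groups, although the Lcp2 call was lost with the slide as a fixed block (adjusted p = 0.0863). The kinases Zap70 and Lck and the adaptor Lat gave changes of −0.06, −0.11 and 0.04 and did not pass. Ptcra, the surrogate alpha chain of immature T cells, and Cd8a were not above background on any array.

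Transcription factors and receptors known to act at TCR gene enhancers and promoters moved both ways. Of 14 genes 13 were tested, and 2 were higher and 5 were lower (median −0.04), beside 11.5% and 10.2% of all tested probes. Gata3, needed for T cell development, read −1.68, −1.0 and −1.17 with Ebf1 virus, against 0.98, 1.41 and 1.35 with control virus (−2.53 ± 0.22, limma adjusted p = 0.000167). Il7r, whose signal through Stat5 is known to open the gamma locus in mice, read 1.07, 0.98 and 1.21 with Ebf1 virus, against 2.70, 2.95 and 2.67 with control virus (−1.69 ± 0.15, adjusted p = 0.000196). Both genes were lower with no overlap, and so was Runx1 (−1.65 ± 0.26, adjusted p = 0.00341). Lef1 (−1.14) and Cbfb (−0.73, on 1 of its 2 tested probes) were lower as well. Stat5a (1.66 ± 0.26, adjusted p = 0.00348) and Tcf7 (1.61 ± 0.22, adjusted p = 0.00196) were higher, the second of them not with the slide as a fixed block (adjusted p = 0.0581).

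**Figure D5:**
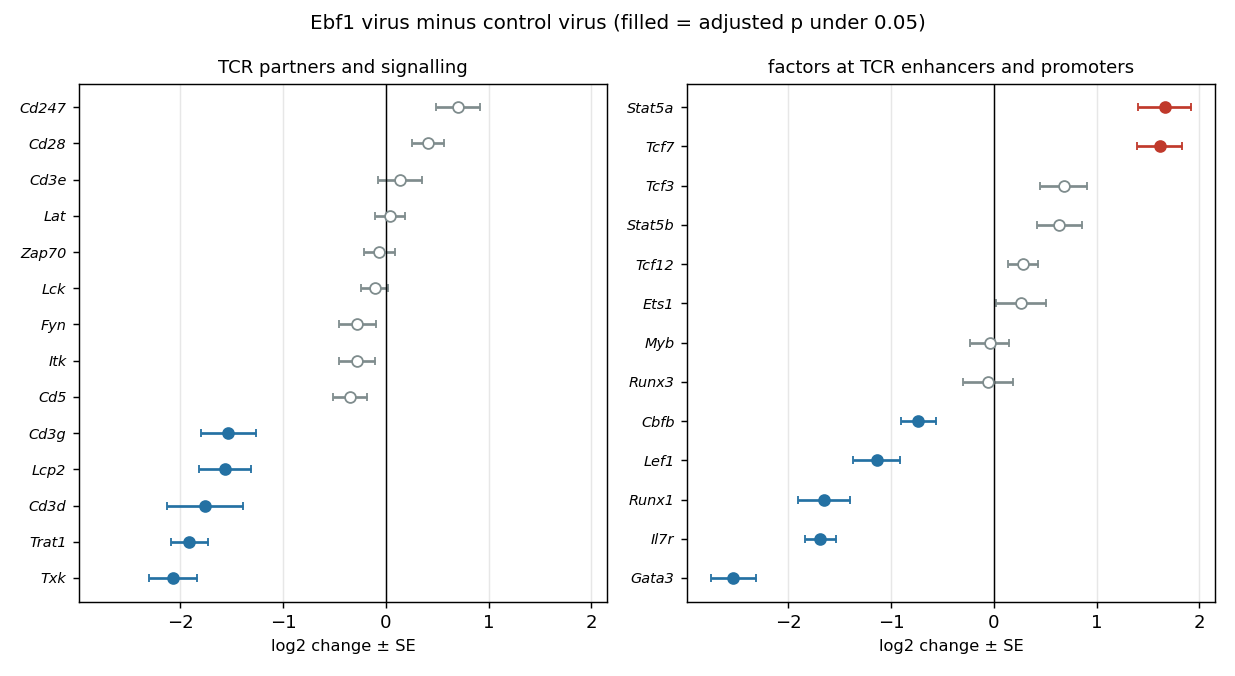
Log2 change, Ebf1 virus minus control virus, with the SE of the limma fit (bars) for tested TCR partner and signalling genes (left) and factors at TCR enhancers and promoters (right); filled points had an adjusted p under 0.05. The called partners lie between −2.07 (Txk) and −1.53 (Cd3g), and the factors run from −2.53 (Gata3) to 1.66 (Stat5a).

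The recombination machinery showed no common direction. Of 15 V(D)J recombination genes 14 were tested, and 1 was higher and 4 were lower (median −0.17), beside 11.5% and 10.2% of all tested probes. Rag1, a subunit of the recombinase, read −1.33, −1.53 and −1.23 with Ebf1 virus, against −2.29, −1.94 and −2.43 with control virus (0.86 ± 0.18, limma adjusted p = 0.0131). Its groups did not overlap, while Rag2, the other subunit, was not above background on any array. Lig4 (−0.73, on 1 of 2 tested probes), Hmgb1 (−0.89, on 1 of 3), Polm (−0.79) and Xrcc5 (−0.69), which act in end joining or DNA bending during recombination, were lower. With the slide as a fixed block none of these 5 calls was made (adjusted p = 0.22 for Rag1 and 0.0786 to 0.0955 for the others), nor was any without the filter on dim probes (0.0813 for Rag1 and 0.0501 to 0.185). The Rag1 call was also lost under median scaling (0.55, adjusted p = 0.245) and without control virus replicate 3 (0.0531), that on Polm without control virus replicate 2 (0.0579), and that on Xrcc5 under quantile normalisation (0.0745) and without any 1 of 5 arrays, all but Ebf1 virus replicate 3 (0.0798 to 0.113).

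Of the markers of cells that the sort could hold, some differed between the groups and others did not. The counts below stand beside 11.5% higher and 10.2% lower of all tested probes. All 9 pre-pro-B markers were tested, 2 were higher (Ly6d and Rag1) and 4 were lower (Kit, Il7r, Spn and Cd93), with summed levels relative to the array's 75th percentile of 221 to 243 with Ebf1 virus and 104.6 to 130.3 with control virus. Ly6d carries that order: without it, a sum taken after the values were seen, the other 8 gave 54.1 to 56.7 with Ebf1 virus and 81.6 to 94.0 with control virus. Of 14 T cell markers, 10 were tested, 3 were lower and 0 were higher (Cd3d, Cd3g and Cd2), with 2 higher at an unadjusted p under 0.05. Their summed level was 17.9 to 18.9 with Ebf1 virus and 20.0 to 23.4 with control virus, and Cd4, Cd8a, Cd8b1 and Ptcra were too dim to be tested. Of 9 natural killer and innate lymphoid markers 5 were tested, 2 were higher (Gzma and Tbx21) and 3 were lower (Il2rb, Klrd1 and Nkg7), with summed levels of 50.3 to 58.4 with Ebf1 virus and 27.6 to 32.3 with control virus. Gzma carries that order, and without it the sum was 8.88 to 10.1 with Ebf1 virus and 26.7 to 31.1 with control virus; Klrb1c and Klrk1 were not above background on any array. Of 10 stromal markers 8 were tested and 1, Fn1, was higher (6 at an unadjusted p under 0.05), with summed levels of 27.6 to 36.1 with Ebf1 virus and 18.9 to 26.2 with control virus. Leaving out the brightest gene of the T cell and stromal lists, Zap70 and Pdgfrb, kept the order of their sums. The part of these differences in the receptor results was not tested.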

How the data were processed

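Cy3-labelled RNA of the sorted cells was read on 6 Agilent 1-colour arrays. Per the file headers, the deposited values are spot intensities from Agilent Feature Extraction 10.5.1.1, background-subtracted within each array and not normalised between arrays; the deposited series table held the same intensities within 0.1 percent. Positions are mm9, per the file headers. Of these deposited signals the log2 was taken here, the 75th percentile of an array's 43379 non-control features was removed from its values, between 65 and 116 outlier-flagged spots an array were dropped, and spots of 1 probe were averaged. Saturation was flagged at 0 spots. Tested probes were those well above background throughout either group (a probe on several spots, when the flag was set on 50% or more of its spots); 7 tested probes lacked a value on some array. Groups were compared with limma 3.58.1 in R 4.3.3 (lmFit, eBayes, two-sided, Benjamini-Hochberg over 20454 probes, threshold 0.05), a script that was also tested on simulated data. Changes are Ebf1 virus minus control virus on the log2 scale, with the fit's standard error (SE). Named were every called member, constant-region members, up to 3 uncalled members per locus with the highest mean, the 4 excluded neighbours, and up to 5 called genes per list with the smallest p; a gene is its tested probe with the highest mean. RefSeq accessions of 25097 probes matched a GRCm38.p6 table for symbols, from which no coordinates were used. Members and lists were chosen with earlier results of these data known. A gene of the enhancer factor list is not reported here. The alternatives tried were normexp correction (offset 50), quantile and median scaling, filters, replicate and slide blocks, eBayes options, leaving out each array and use of the deposited table; leaving out spots with flagged backgrounds was added after seeing the data. The small number of arrays limits precision.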

Additional observations from a re-analysis of the deposited data

How the results depend on the processing

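Over the 65 probes, 17 were lower (16 of them receptor probes) and 0 higher in the fit described. The lower count was 14 with normexp correction, 20 with quantile normalisation and with median scaling, 12 without the filter on dim probes, 15 with the replicate block and 18 with eBayes trend and robust options. Over the whole array, lower calls were 2085 of 20454 probes in the fit described. They were 2014 with normexp, 2150 with quantile normalisation, 2642 with median scaling, 1233 with the replicate block and 2624 with the eBayes options. Without the filter they were 655 of 41174. With the slide as a fixed block 11 members were lower (898 probes over the array), from changes measured on slide 2 alone. Leaving out each array in turn gave 12 to 19 lower members (1016 to 1687 probes over the array). The lower member count was 17 with the all-array filter, the slide as a random block, the deposited table and flagged backgrounds left out. Over the array these gave 2086, 2070, 2085 and 1990 lower calls. The deposited table holds the same intensities and the random block had a correlation of 0.011, so these 2 fits nearly repeat the one described. The higher count was 1 without the filter and without Ebf1 virus replicate 2 (range 0 to 1 over arrays left out; NAP111188-1, a probe too dim for the filter), and 1 with the slide as a fixed block (A_52_P643812). By locus, the slide as a fixed block left 4 lower alpha/delta probes (7 in the fit described) and 3 lower gamma probes (5), no filter left 3 lower beta (5) and 3 lower gamma probes, and normexp left 3 lower beta probes. Leaving out 1 array gave 3 to 7 lower beta and 3 to 5 lower gamma probes. Same-numbered samples correlated at −0.17, −0.25 and 0.10 in their deviations from group means. So few values, with slides also differing between samples, cannot settle whether the numbers pair the samples. Under the replicate block 15 receptor probes were lower.

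Among the named probes and genes, signs turned only in these uncalled changes. Tox4 A_52_P276794 was −0.20 and A_52_P643812 −0.12 under median scaling, and they ranged from −0.012 to 0.30 and −0.048 to 0.35 with 1 array left out. Tcra A_51_P484329 ranged from −1.18 to 0.59 with 1 array left out, 1810049H19Rik from −0.52 to 0.13 (0.32 with the slide fixed) and NAP069146-1 from −0.75 to 0.38 (0.29 with the slide fixed). Cd3e was −0.0015 with normexp, −0.25 with quantile and −0.17 with median scaling (−0.024 to 0.36 with 1 array left out). Oxa1l was 0.013 with normexp (−0.21 to 0.035), and Ebf1 was 0.11 with the slide fixed (−0.32 to 0.062). Of 22 named genes that are not among the 65 probes, 10 lost their call with the slide fixed, 8 without the filter and 4 with the replicate block (Rag1, Xrcc5, Dad1 and Ephb6). Over all settings these genes gave 44 lost calls, and the named probes 39. Under the block AK050604, E430024C06Rik and Sall2 lost theirs. The cause of these changes was not tested. Probes near background give less precise changes.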

Other observations

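The 28 receptor probes that were not tested had median log2 levels of −7.27, −6.93 and −5.82 with Ebf1 virus, against −6.78, −6.38 and −6.79 with control virus. Of these, 20 were above background on no array, among them the V segments TRAV6D-6, TRAV7-6 and TRDV2-1 and the beta joining region AK018014, and 8 were above it on some arrays. Ebf1 virus replicate 3 and control virus replicate 2 were each the brightest array for 11 of the 28.

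NAP111188-1 (chr14:54086273-54086332), singled out after its values were seen, was above background on 2 of 3 Ebf1 virus arrays and on 0 of 3 control virus arrays, with a mean log2 level of −4.92 ± 0.41 with Ebf1 virus and −6.64 ± 0.31 with control virus (SD, n = 3 each). Also singled out after their values were seen, Tcra A_52_P480620 and U07661 A_51_P407832 were above background on 0 of 3 Ebf1 virus arrays and on 2 of 3 control virus arrays each.

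Of the 9 olfactory receptor and trypsin family probes left out by name in the windows, 1 was tested, a Prss3 probe, which was lower (log2 change −0.80 ± 0.17, limma adjusted p = 0.0134).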
